A study of Mus musculus with 6 samples.

Results

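The genes described here are the protein-coding genes of mouse chromosomes 6 and 12, read in order along each chromosome, and the stretches of neighbouring genes whose RNA level differed together between a pair of breast cancer cell lines. A gene entered when its mean level over 6 RNA-seq libraries was at least 10 CPM (estimated counts scaled to the library total, in parts per 1000000), which left 720 of 8737 such genes in the mouse genome, 412 on chromosome 6 and 308 on chromosome 12. For each gene the log2 of the LM2 mean CPM over the Parental mean CPM was taken, and the medians of 40 neighbouring genes were followed along the chromosome. Of the 720 genes, 416 lay in 3 low stretches, 2 on chromosome 6 and 1 on chromosome 12, in which the LM2 level was below the Parental level. The stretches were chosen by these log2 ratios of all 6 libraries, so every LM2 to Parental difference below is a description of the chosen genes and not a test of them.

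The 2 groups were EO771-tdT-Parental and EO771-tdT-LM2, with 3 libraries of each. The titles of the Parental libraries alone also carry the tag Ac6, which the labels do not explain. EO771 is a mouse mammary carcinoma line from the C57BL/6 strain. Both lines carry the tdT name, are labelled WT for genotype and breast cancer cells for cell type, and were grown for 48 h to about 75% confluence in RPMI 1640 with 10% fetal bovine serum. The labels do not say how LM2 was derived, whether either line is 1 clone, or whether the replicates were separate cultures, so the spread between replicates may be technical.

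A cell with a gene in fewer or more copies usually makes less or more of its RNA, and a gain or loss of a chromosome arm therefore moves the RNA of many neighbouring genes by a similar factor. Neighbouring genes can also share chromatin domains, and the RNA of a single gene is further set by its own promoter and RNA decay. RNA levels alone do not measure copy number, and the DNA of these lines was not analysed here. Mouse chromosomes have the centromere at one end, so "proximal" below means the end from which genes are counted and "distal" the end toward the far telomere.

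Promoters of genes in the low stretches are shown first, to set genes of the same stretch with opposite differences side by side. Whether promoter sequence bears on these differences was not tested. Serbp1 and Gapdh have the most counts in the proximal and distal low stretches of chromosome 6, and Hipk2, Ptpn6 and Crip1 have the ratio farthest above 0 in each low stretch. On chromosome 12 the gene with the most counts is Hsp90aa1, for which the promoter table used here had no entry, so no run is shown. Each run is the 250 bases before the gene's start, 5′ to 3′ on the gene's own strand, from the RefSeq promoter table of build GRCm38.p6. Capitals mark a GC box (GGGCGG, or CCGCCC on the other strand), a CCAAT box (CCAAT or ATTGG) or a TATA box (TATAAA or TTTATA), with overlapping matches joined. Serbp1 lies at chr6:67266729-67266978 on the plus strand, Hipk2 at chr6:38876191-38876440 on the minus strand, Gapdh at chr6:125165774-125166023 on the minus strand, Ptpn6 at chr6:124738710-124738959 on the minus strand and Crip1 at chr12:113151762-113152011 on the plus strand.
Serbp1: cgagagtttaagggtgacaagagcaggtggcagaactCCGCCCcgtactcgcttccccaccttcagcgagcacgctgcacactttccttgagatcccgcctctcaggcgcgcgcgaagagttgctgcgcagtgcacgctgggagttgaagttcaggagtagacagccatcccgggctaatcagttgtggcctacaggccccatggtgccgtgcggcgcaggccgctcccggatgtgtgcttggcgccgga
Hipk2: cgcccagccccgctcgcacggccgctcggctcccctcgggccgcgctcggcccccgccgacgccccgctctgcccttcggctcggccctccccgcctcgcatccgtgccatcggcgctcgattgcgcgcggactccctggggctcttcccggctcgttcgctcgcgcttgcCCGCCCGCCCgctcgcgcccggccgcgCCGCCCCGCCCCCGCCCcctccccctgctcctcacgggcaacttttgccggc
Gapdh: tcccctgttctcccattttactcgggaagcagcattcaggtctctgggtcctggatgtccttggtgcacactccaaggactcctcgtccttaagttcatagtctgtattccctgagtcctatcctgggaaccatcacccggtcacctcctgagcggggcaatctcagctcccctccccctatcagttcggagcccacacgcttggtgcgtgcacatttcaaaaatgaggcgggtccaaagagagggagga
Ptpn6: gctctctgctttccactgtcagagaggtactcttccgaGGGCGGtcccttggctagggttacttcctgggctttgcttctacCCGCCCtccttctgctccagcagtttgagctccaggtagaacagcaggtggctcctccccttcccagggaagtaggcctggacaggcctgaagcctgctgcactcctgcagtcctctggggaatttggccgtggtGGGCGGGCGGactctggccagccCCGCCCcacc
Crip1: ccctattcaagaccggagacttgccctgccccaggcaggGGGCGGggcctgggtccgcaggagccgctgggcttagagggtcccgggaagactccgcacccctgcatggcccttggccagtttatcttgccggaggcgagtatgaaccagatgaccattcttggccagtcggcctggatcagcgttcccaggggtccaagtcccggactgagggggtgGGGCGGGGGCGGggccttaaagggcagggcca
A GC box was found once in the Serbp1 run, 5 times in that of Hipk2, 5 times in that of Ptpn6 and 3 times in that of Crip1, and 0 times in that of Gapdh. None of these 5 runs held a CCAAT or TATA box by these letters. Their share of G and C was 63.2% for Serbp1, 80.8% for Hipk2, 55.6% for Gapdh, 63.2% for Ptpn6 and 67.2% for Crip1.

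Across the proximal low stretch of chromosome 6, 141 of 147 genes had a promoter in the table, with a median GC content of 60.8%. In the distal low stretch of chromosome 12, 123 of 140 genes had one, with a median of 62%. The median over all 8732 genes looked up was 60.8%, with a promoter for 81.3% of them. A GC box occurred in 68.8% of the promoters of the chromosome 6 proximal low stretch, in 62.6% of those of the chromosome 12 distal low stretch and in 64.3% of all. A CCAAT box occurred in 34.8%, 36.6% and 37.1%, and a TATA box in 4.26%, 3.25% and 5.38%, in the same order. For the distal low stretch of chromosome 6 only 76.7% of genes had a promoter, fewer than the 80% set for such a check, so the check is void there.

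Libraries held 33922699 to 45849019 estimated counts, of which 0.426 to 0.448% belonged to transcripts that matched no gene. Of 20 markers of leukocytes, endothelium, fibroblasts, lung epithelium and epithelium, 14 were below 1 CPM, among them the leukocyte marker Ptprc at a mean of 0.07 CPM. At least 10 CPM was reached by 3 of the 20, none with a ratio below 0. Besides Krt8 and Vim, given next, they include a leukocyte, endothelial, fibroblast or lung epithelial marker that is not named here. The 20 markers summed to 4384 to 4486 CPM in the Parental and 5495 to 5602 CPM in the LM2 libraries. The epithelial keratin Krt8 had means of 419 CPM (Parental) and 568 CPM (LM2), those of the mesenchymal filament gene Vim were 3893 and 4779 CPM, and those of the epithelial adhesion gene Epcam 0.154 and 15 CPM, while Krt18 and Cdh1 were at most 0.237 and 0.248 CPM in any library. Of the epithelial markers Krt8 was thus present in both lines and Krt18 and Cdh1 were nearly absent. In bulk RNA, fewer cells that express a gene and less RNA per cell cannot be told apart, and this applies to every value below. Over all 13247 genes tested, the quasi-likelihood test of edgeR, with p-values adjusted by Benjamini and Hochberg's method and a limit of 0.05, called 62.4%, 31.1% lower and 31.4% higher in LM2.

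On chromosome 6 the medians of 40 neighbouring genes ran from −0.39 to 0.06 on the log2 scale, and the line between low and other windows was set at their midpoint of −0.16. Of 373 windows, 258 lay below it, and the lowest ran from Asns to Zc3hc1. They formed 2 low stretches with a stretch near 0 between them. The proximal one reached from the first gene, Samd9l, to Tmem150a and held 147 genes. The middle stretch of 105 genes, from Rnf181 to Trnt1, had a median log2 ratio of −0.00. The distal low stretch began with Crbn, ended with Dera and held 129 genes, and 31 terminal genes from Mgst1 to Resf1 followed it.

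**Figure D1:**
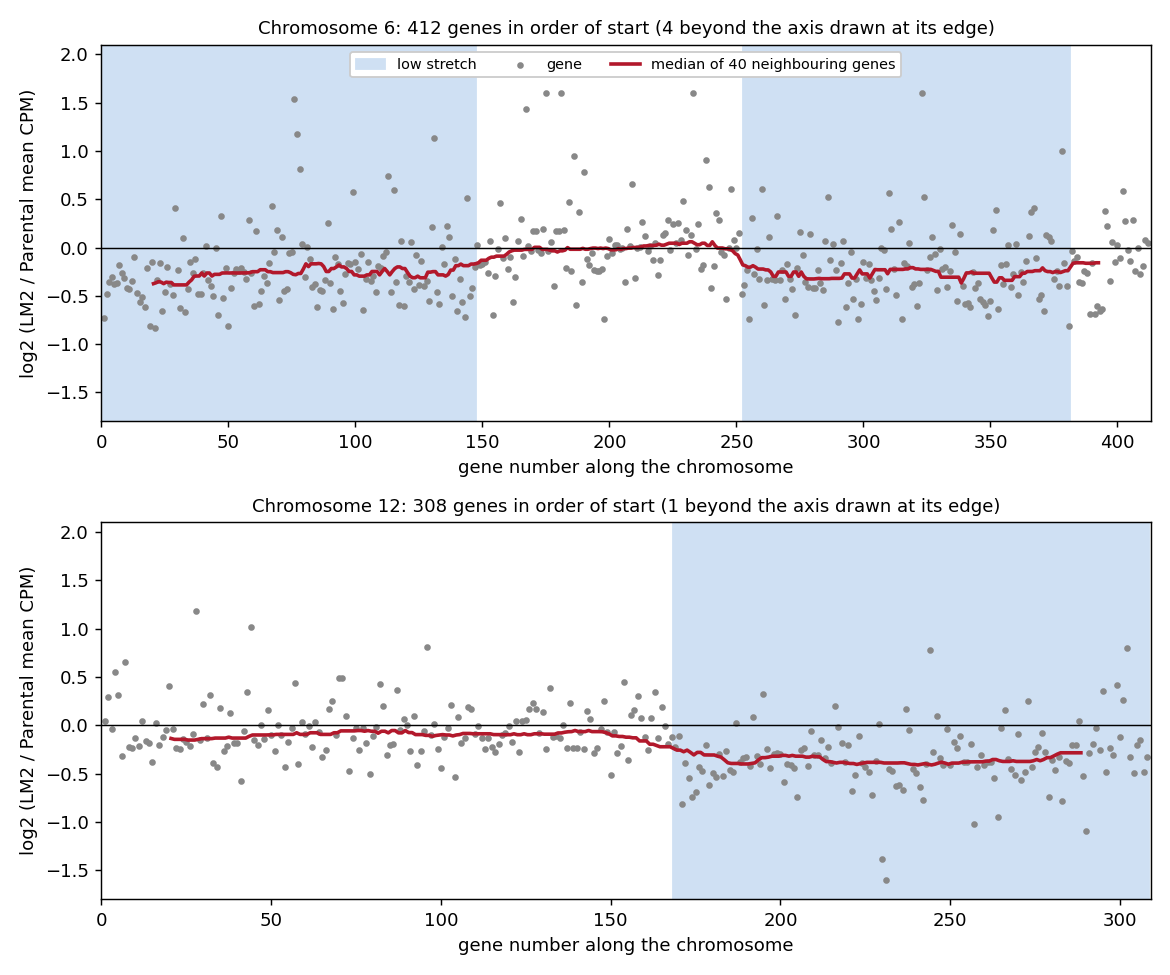
Log2 of LM2 over Parental mean CPM (vertical axis) for each gene (grey points) in its order along chromosome 6 (top, 412 genes) and chromosome 12 (bottom, 308 genes), with the median of 40 neighbouring genes (red line) and the low stretches shaded. The red line lies below 0 in the shaded stretches, near 0 in the middle of chromosome 6, and slightly below 0 over the proximal genes of chromosome 12.

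Window medians on chromosome 12 ran from −0.41 to −0.05, with a midpoint of −0.23. The lowest window ran from Vipas39 to Papola, and 121 of 269 windows lay below the midpoint. They formed 1 low stretch of 140 genes, from Rdh11 to the last gene, Cdca7l. The 168 proximal genes, from Rab10 to Vti1b, had a median of −0.10.

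In the proximal low stretch of chromosome 6 the median gene had an LM2 to Parental log2 ratio of −0.30, which is 18.8% lower, with quartiles of −0.46 and −0.12, and 121 of 147 genes were below 0. The distal low stretch of chromosome 6 had a median of −0.27, or 17.3% lower, with quartiles of −0.43 and −0.02, and 99 of 129 genes below 0. The chromosome 12 low stretch had a median of −0.37, or 22.45% lower, with quartiles of −0.48 and −0.20, and 125 of 140 genes below 0. Together the 416 genes had a median of −0.32, or 20.2% lower, and 345 of them, 82.9%, were below 0. On the other autosomes the median of 7766 genes was −0.00, with 50.2% of them below 0. The difference was broad and shallow, as only 4 of the 416 genes were below −1 and 5 above 1.

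The LM2 libraries were also read separately, to show their spread. Their own mean had placed the stretches, so low medians in each are no independent support. Taking each gene against its Parental mean, the median of the chromosome 6 proximal low stretch was −0.28, −0.30 and −0.31 in LM2 libraries 1 to 3, with a mean of −0.30 ± 0.02 (SD, n = 3). The chromosome 6 distal low stretch had medians of −0.29, −0.28 and −0.26, with a mean of −0.28 ± 0.01 (SD, n = 3). Medians of the chromosome 12 low stretch were −0.35, −0.36 and −0.34, with a mean of −0.35 ± 0.01 (SD, n = 3). No LM2 library came near 0 in any of the 3 low stretches, while the middle stretch of chromosome 6 gave 0.01, −0.02 and 0.00.

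**Figure D2:**
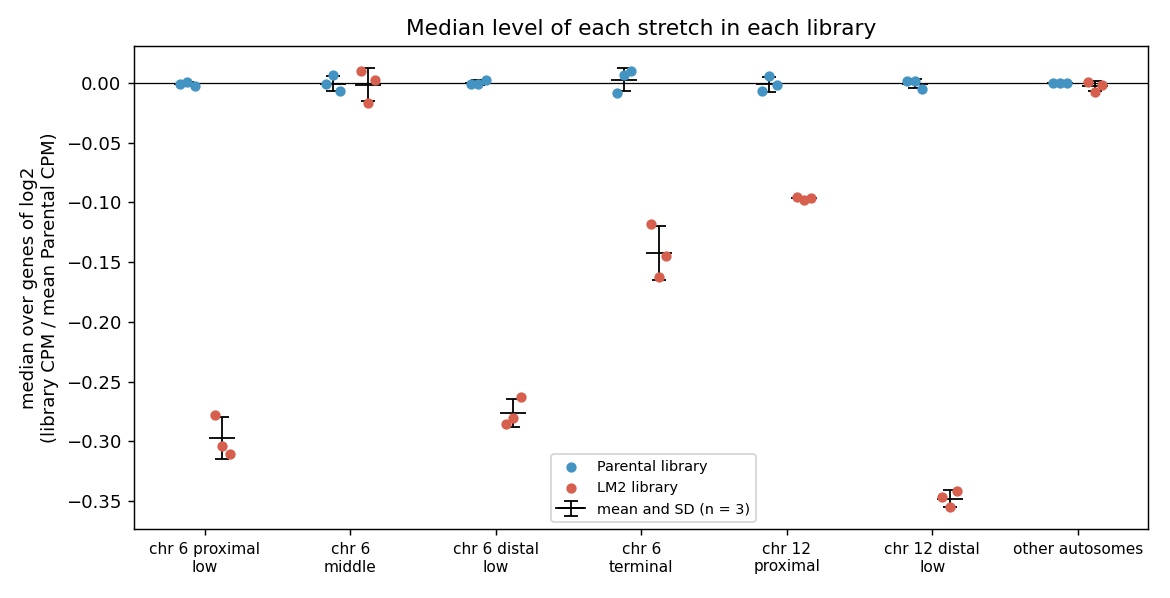
Median over genes of log2 of a library's CPM over the mean Parental CPM (vertical axis) for each stretch and for the other autosomes, with 1 point per library and the mean and SD of 3 libraries as bars. LM2 libraries lie between −0.36 and −0.26 in the 3 low stretches and near 0 in the middle of chromosome 6 and on the other autosomes.

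The boundaries were also read from a single library of each line, and the medians then taken in the 4 libraries that had not placed them. All 6 libraries had nonetheless served to choose the chromosomes and the genes of at least 10 CPM, so this describes the edges and is no independent support. With boundaries from replicates 1, 2 and 3, the proximal low stretch of chromosome 6 held 147, 146 and 148 genes and had medians of −0.32, −0.30 and −0.29 in the unused libraries. The distal low stretch of chromosome 6 held 126, 133 and 160 genes, with medians of −0.26, −0.26 and −0.24. The chromosome 12 low stretch held 140, 140 and 145 genes, with medians of −0.35, −0.37 and −0.34. All 3 stretches had a counterpart from each pair of libraries, but the midpoint rule always marks some windows as low. The end of the distal stretch of chromosome 6 moved most.

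Summed levels showed the same in fewer numbers. The 416 genes of the low stretches took 60237 to 60356 CPM in the Parental libraries and 48680 to 49258 CPM in the LM2 libraries, that is 6.03% and 4.89% of a library. The ratio of LM2 to Parental sums was 0.832 in the proximal and 0.804 in the distal low stretch of chromosome 6, and 0.798 in that of chromosome 12. In the middle stretch of chromosome 6 it was 1.02, and over the proximal genes of chromosome 12 it was 0.954.

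The gene values at the end of the proximal low stretch of chromosome 6 were uneven. The last 5 genes inside were Polr1a at −0.72, St3gal5 at 0.51, Usp39 at −0.50, 0610030E20Rik at −0.42 and Tmem150a at −0.20. Outside followed Rnf181 at 0.03, Vamp5 at −0.18, Vamp8 at −0.17, Ggcx at −0.15 and Mat2a at −0.27. Polr1a encodes the largest subunit of RNA polymerase I, and Mat2a an enzyme that makes S-adenosylmethionine. The last window inside had a median of −0.17 and the first outside −0.16, and since neighbouring windows share all but 1 gene at each end, these medians say nothing of how sharp the edge is.

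At the start of the distal low stretch the last 5 genes outside were Eif4e3 at 0.61, Rybp at 0.07, Shq1 at −0.00, Ppp4r2 at 0.15 and Trnt1 at −0.48. The first 5 inside were Crbn at −0.39, Sumf1 at −0.23, Itpr1 at −0.74, Bhlhe40 at 0.31 and Arl8b at −0.27. Trnt1 already had a ratio like those of the low side, but single gene values do not place the edge. Under other settings the first gene inside ranged from Trnt1 (fitted step) to Srgap3 (windows of 60 genes). The window median went from −0.13 just outside the edge at Crbn to −0.18 just inside. Crbn encodes the substrate receptor of a ubiquitin ligase, and Itpr1 a calcium release channel of the endoplasmic reticulum. The counts of Ppp4r2, Eif4e3 and Rybp are uncertain, as 16.6%, 13.9% and 10.8% of the 31-base words in their transcripts also occur in other genes.

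The far end of this stretch was the least certain. Inside it lay Wbp11 at −0.39, Arhgdib at 1.0, Eps8 at −0.16, Strap at −0.39 and Dera at −0.82. Outside it lay Mgst1 at −0.03, Plekha5 at −0.13, Aebp2 at −0.10, Pyroxd1 at −0.36 and Recql at −0.37. The windows beyond the edge stayed at −0.16, within 0.01 of the midpoint, up to the end of the chromosome. The 31 terminal genes had a median of −0.14, with 22 of them below 0, which is between the low stretches and the middle of the chromosome. With windows of 60 genes, with the fitted step, with boundaries from replicate 3, or without Parental replicate 1, the low stretch ran on to the last gene, Resf1.

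On chromosome 12 the last 5 genes before the low stretch were Gphn at −0.13, Mpp5 at 0.19, Atp6v1d at −0.01, Eif2s1 at −0.19 and Vti1b at −0.12. The first 5 inside were Rdh11 at −0.23, Zfyve26 at −0.11, Zfp36l1 at −0.81, Actn1 at −0.39 and Dcaf5 at −0.55. Zfp36l1, a destabiliser of AU-rich mRNAs and 2 genes past the edge from the windows, was the first far below the genes outside. Single gene values do not place an edge. Under other settings the first gene inside ranged from Gphn (windows of 60 genes, boundaries from replicate 3) to Zfp36l1 (windows of 20 genes, fitted step). Eif2s1 shares 10.5% of its words with other genes. The window median was −0.22 just outside the edge at Rdh11 and −0.24 just inside it. With the fitted step the far end came earlier too, at Inf2, and the stretch held 121 genes.

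Within the stretches the ratio was not level. In consecutive blocks of 20 genes of chromosome 6 the medians began at −0.37 (Samd9l to Mdfic), −0.36 and −0.26, came to −0.05 in the fourth block (Cald1 to Mkrn1), and went back to −0.30 in the fifth (Dennd2a to Malsu1). All 20 genes of the first block were below 0, against 12 of 20 in the fourth. Within the middle stretch, blocks ran from −0.15 (Actg2 to C87436) to 0.14 (Tpra1 to Kbtbd8). In the distal low stretch they lay between −0.39 (Mrpl51 to Gabarapl1) and −0.20 (Ybx3 to Strap).

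On chromosome 12 the first 8 blocks lay between −0.16 and −0.04, and the next 8 between −0.48 and −0.24. The lowest of them ran from Vipas39 to Trip11, with 18 of 20 genes below 0. Every block of the chromosome had a median below 0. The proximal genes of chromosome 12 were thus also slightly lower in LM2, with 110 of 168 genes, or 65.5%, below 0. This was not particular to chromosome 12. Chromosome X had a median of −0.09, with 66.2% of 237 genes below 0. For chromosome 18 the median was −0.06, with 63.3% of 218 genes below 0.

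The low median was similar for genes of low and high abundance. In the 3 low stretches together it was −0.30 for 102 genes of 10 to 30 CPM, −0.33 for 169 genes of 30 to 100 CPM and −0.33 for 145 genes above 100 CPM. The same classes on the other autosomes had medians of −0.01, 0.00 and −0.00. In the chromosome 6 distal low stretch alone 18 of 30 genes were below 0 in the lowest class and 47 of 53 in the highest.

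Genes that the rule left out for low level had more scattered ratios. The 90 protein-coding genes of 1 to 10 CPM in the low stretches had a median of −0.28 and quartiles of −0.71 and 0.26, and 58 of them were below 0. On the other autosomes 1983 such genes had a median of 0.10, with 43.5% below 0. By stretch the medians were −0.35 (27 genes) and −0.45 (28 genes) in the proximal and distal low stretches of chromosome 6, but −0.07 (35 genes) in the low stretch of chromosome 12. Of 12 genes of other types, such as long noncoding RNAs and pseudogenes, of at least 1 CPM in the low stretches, 11 were below 0, with a median of −0.38, against 61.1% of 275 on the other autosomes. These genes come from the same comparison as the rule, so they too are given as a description.

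**Figure D3:**
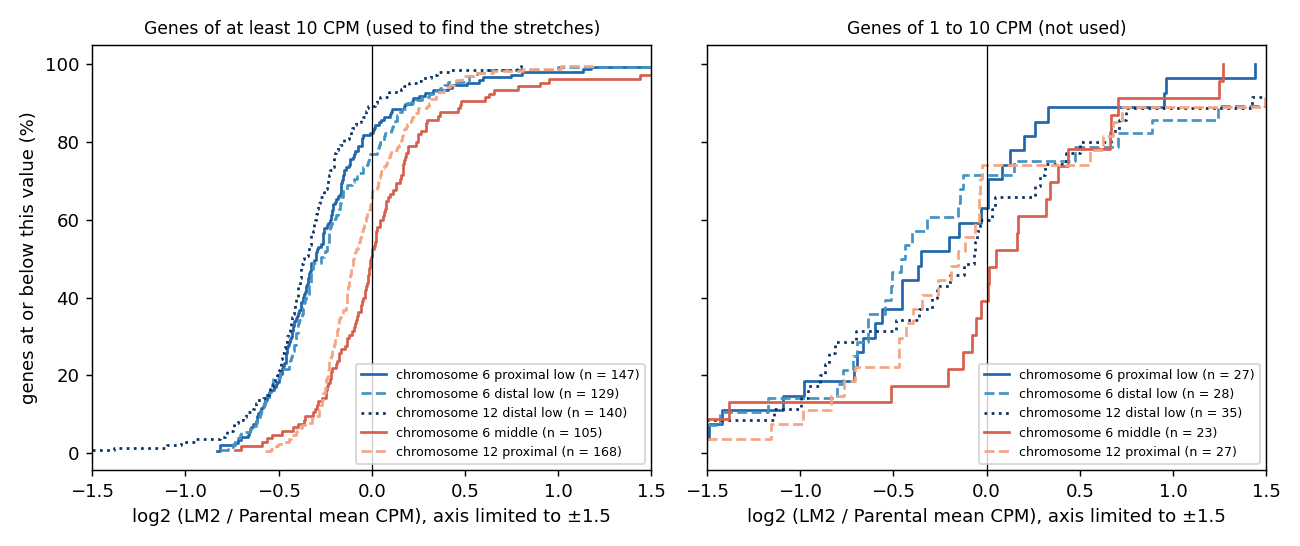
Share of genes (vertical axis, percent) at or below each log2 ratio of LM2 over Parental mean CPM (horizontal axis, limited to ±1.5), for genes of at least 10 CPM that placed the stretches (left) and genes of 1 to 10 CPM that did not (right). On the left the 3 blue curves of the low stretches lie to the left of those of the middle of chromosome 6 and the proximal part of chromosome 12. On the right the curves are wider. There the median of the chromosome 12 low stretch lies closer to 0 than those of the other low stretches, but its quartiles are −0.83 and 0.37.

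At the lower limit of 10 CPM, the genes just inside were Bdkrb2 with a mean of 10.2 CPM, Borcs5 with 10.3 CPM and Adck2 with 10.4 CPM, at log2 ratios of −1.02, 0.12 and −0.12. Just outside were Hilpda with 9.70 CPM, Caprin2 with 9.65 CPM and Gpr19 with 9.60 CPM, at −0.98, −0.73 and −0.40.

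Many annotated genes of the low stretches were silent or nearly so in both lines. The proximal low stretch of chromosome 6 had 455 annotated protein-coding genes, of which 147, or 32.3%, reached 10 CPM. It holds 36 vomeronasal receptor genes, 23 olfactory receptor genes, 11 Hoxa genes and 8 Gimap GTPase genes of lymphocytes, beside 184 segments of the immunoglobulin kappa locus. The distal low stretch of chromosome 6 had 360, of which 129, or 35.8%, reached 10 CPM, with 25 Klr and 19 Clec lectin receptor genes and 24 Tas2r bitter taste receptor genes. In the low stretch of chromosome 12 it was 140 of 328, or 42.7%, and this stretch holds 23 Serpina protease inhibitor genes and 233 segments of the immunoglobulin heavy chain locus. The middle stretch of chromosome 6 and the proximal part of chromosome 12 had higher shares, 46.7% and 53.3%.

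Counts per gene by test and by overlap were as follows, and nothing is read from them because the rule used this comparison. In edgeR, 321 of the 416 genes were called lower, 49 higher and 46 neither, where 38.9% of all 8737 genes of at least 10 CPM were called lower and 34.3% higher. All 3 LM2 libraries lay below all 3 Parental libraries for 325 of the 416 genes, against 40.4% of the 8737, and above them for 55, against 36.1%. By stretch, 112 of 147 genes were called lower in the proximal and 92 of 129 in the distal low stretch of chromosome 6, and 117 of 140 in that of chromosome 12. In the middle stretch of chromosome 6, 36 of 105 were called lower and 35 higher.

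The most abundant genes of the low stretches, taken by CPM, were housekeeping genes in the main. In the proximal stretch of chromosome 6 the first was Serbp1, whose product binds mRNA and idle ribosomes. Serbp1 had 1602, 1638 and 1644 CPM in the Parental libraries and 1190, 1203 and 1156 CPM in the LM2 libraries, a log2 ratio of −0.46. The splicing factor gene Hnrnpa2b1 had 1363, 1390 and 1435 CPM against 1152, 1162 and 1104 CPM, a ratio of −0.29. For Nup205, of the nuclear pore, values were 568.6, 571.1 and 553.0 CPM against 427.0, 451.8 and 435.2 CPM, a ratio of −0.37. In all of these the LM2 libraries lay below all Parental ones, as for 40.4% of all 8737 genes of at least 10 CPM. Nothing is read from this, as the stretch was chosen for low LM2 levels. Flnc, which encodes the actin crosslinker filamin C, was an exception, with 542.0, 514.3 and 510.0 CPM against 492.8, 567.6 and 526.3 CPM, a ratio of 0.02 with overlapping libraries. Calu and Snd1 stood at −0.26 and −0.12.

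In the distal low stretch of chromosome 6 the most abundant gene was Gapdh, the glycolytic enzyme often used as a reference gene. It had 4340, 4340 and 4295 CPM in the Parental libraries and 3374, 3334 and 3172 CPM in the LM2 libraries, a log2 ratio of −0.39, or 1.31-fold lower. Per length, its mean was 6948 TPM in Parental and 5497 TPM in LM2. Gapdh therefore differed between these lines by more than the spread of their libraries, and 27.2% of its 31-base words also occur in transcripts of other genes. Ybx3, a cold shock domain RNA-binding protein, had 1255, 1245 and 1249 CPM against 881.9, 910.6 and 875.2 CPM, a ratio of −0.49. Rpl32, of the large ribosomal subunit, stood at −0.44, with 42.0% of its words shared, so that its counts are uncertain. The kinase gene Wnk1 stood at −0.45 and the splicing factor gene Hnrnpf, with 38.5% of words shared, at −0.36.

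In the low stretch of chromosome 12 the chaperone gene Hsp90aa1 was first, with 1987, 1995 and 1970 CPM in the Parental libraries and 1343, 1359 and 1325 CPM in the LM2 libraries, a ratio of −0.56. Its level is uncertain, as 51.4% of its 31-base words also occur in other genes. Ahsa1, which encodes the activator of the ATPase of that chaperone, had 452.8, 445.2 and 445.6 CPM against 317.6, 315.7 and 309.7 CPM, a ratio of −0.51. Both chaperone genes were lower in each LM2 library than in any Parental one, as were 40.4% of all 8737 genes of at least 10 CPM. Actn1, an actin crosslinker of adhesion sites, had 956.5, 949.4 and 960.0 CPM against 724.8, 737.6 and 718.7 CPM, a ratio of −0.39. For Dync1h1, the heavy chain of cytoplasmic dynein, the libraries overlapped, with 661.7, 662.3 and 623.3 CPM against 534.9, 675.7 and 622.6 CPM.

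**Figure D4:**
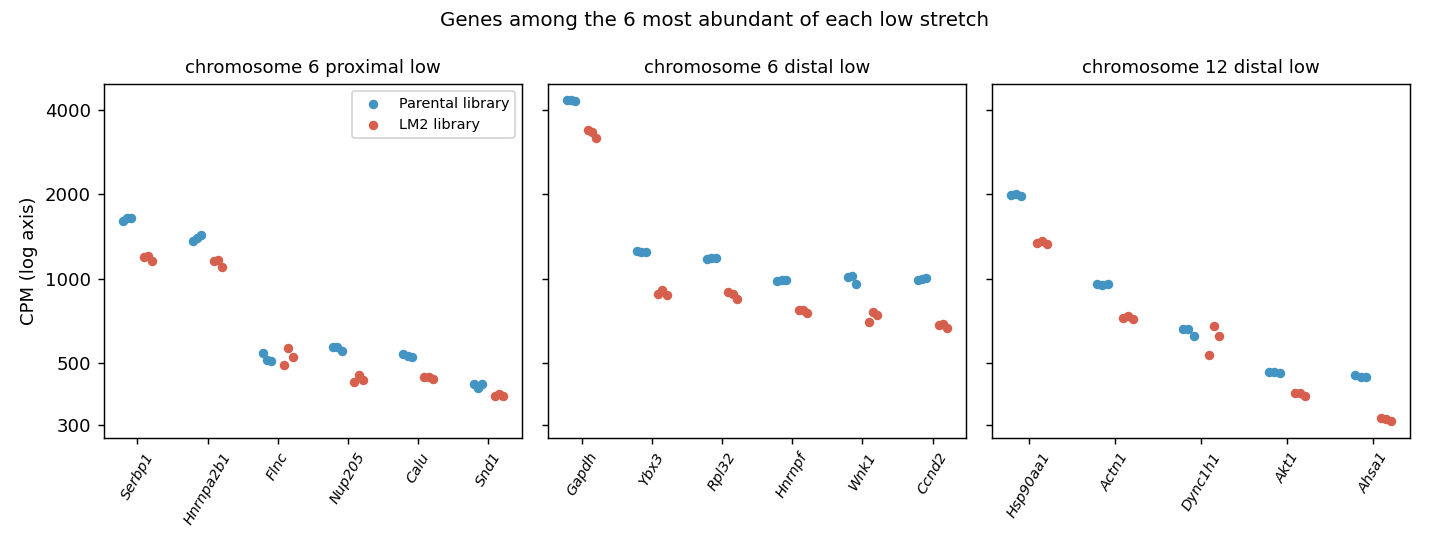
CPM (vertical log axis) of genes among the 6 most abundant of each low stretch, with 1 point per library, Parental in blue and LM2 in red. LM2 points lie below Parental points for all genes shown but Flnc and Dync1h1.

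In the proximal low stretch of chromosome 6 the lowest were Tes at −0.83, Tmem209 at −0.81, Samd9l at −0.73, Polr1a at −0.72, Nrf1 at −0.70 and Pot1a at −0.66. Tes, which encodes a focal adhesion protein, had 113.1, 112.7 and 109.6 CPM in the Parental libraries and 65.27, 63.94 and 59.43 CPM in the LM2 libraries. In the distal one they were Dera at −0.82, Zfand4 at −0.77, Slc2a3 at −0.74, Itpr1 at −0.74, Ankrd26 at −0.74 and Tigar at −0.71. No gene of at least 10 CPM in either chromosome 6 low stretch was as low as −1.

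On chromosome 12 the lowest were Galc at −2.09, Flrt2 at −1.39, Aspg at −1.10, Bdkrb2 at −1.02, Ccdc85c at −0.95 and Zfp36l1 at −0.81. Galc encodes the lysosomal enzyme that degrades galactosylceramide, and had 16.72, 17.35 and 16.60 CPM in the Parental libraries and 4.543, 3.997 and 3.368 CPM in the LM2 libraries. Its neighbour in gene order, Flrt2, encodes a transmembrane adhesion and guidance protein and had 23.92, 22.64 and 23.45 CPM against 9.461, 8.824 and 8.523 CPM. The pair lay in the block with the lowest median of chromosome 12. Galc, Flrt2 and Bdkrb2 were below 10 CPM in every LM2 library and passed the limit on the mean through Parental.

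Some genes of the low stretches were higher in LM2. In the proximal stretch of chromosome 6 these were led by Hipk2, a nuclear kinase of the DNA damage response, with 22.73, 22.51 and 20.74 CPM in the Parental libraries and 61.57, 65.29 and 65.12 CPM in the LM2 libraries, a log2 ratio of 1.54. Parp12, an interferon-induced ADP-ribosyltransferase, had 26.95, 27.83 and 30.35 CPM against 62.32, 62.30 and 68.00 CPM, a ratio of 1.18. Kdm7a, a histone demethylase, had 22.64, 21.72 and 22.05 CPM against 36.84, 36.89 and 42.61 CPM, a ratio of 0.81. Hipk2, Parp12 and Kdm7a are genes 76, 77 and 78 in order along the chromosome, so they are direct neighbours among the genes of at least 10 CPM, and they lie in the block whose median was −0.05. Gadd45a, a stress-induced gene of the DNA damage response, was gene 131 and had a ratio of 1.14. Creb5 and Nod1 followed at 0.74 and 0.60.

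In the distal stretch of chromosome 6 the gene farthest above 0 was Ptpn6, a phosphatase known from blood cells, with 3.681, 4.748 and 4.343 CPM in the Parental libraries and 15.97, 15.49 and 18.15 CPM in the LM2 libraries, a ratio of 1.96. Ptpn6 passed the limit of 10 CPM only through LM2. Arhgdib, also known from blood cells, had 103.4, 105.0 and 99.98 CPM against 203.2, 206.8 and 206.9 CPM, a ratio of 1.0. Beside these values, 20 of 22 lymphocyte markers of the 2 chromosomes were below 1 CPM, their summed level was 3.18 to 3.54 CPM in Parental and 4.66 to 5.66 CPM in LM2, and Igkc, Ighm and Ighd were at 0 in every library. On chromosome 12 the genes farthest above 0 were Crip1, a LIM domain gene, at 0.80, with 31.20, 31.12 and 30.32 CPM against 55.20, 51.43 and 54.72 CPM, and the lysosomal protease gene Lgmn at 0.78, with 72.43, 73.17 and 69.29 CPM against 117.5, 123.8 and 128.2 CPM.

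Among genes of the cell cycle, DNA replication and DNA repair on the 2 chromosomes, 32 reached 10 CPM, 30 of these had a ratio below 0, and the median was −0.34. Of all 33 in this list edgeR called 29 lower and 2 higher, where it called 31.1% of all genes tested lower and 31.4% higher, and nothing is read from these counts. The distal low stretch of chromosome 6 held 12 of them, 11 below 0. There Ccnd2, which encodes cyclin D2, had 986.2, 993.6 and 1004 CPM in the Parental libraries and 684.4, 689.3 and 664.6 CPM in the LM2 libraries, a ratio of −0.55. The condensin subunit gene Ncapd2 had 406.0, 395.0 and 387.5 CPM against 259.8, 269.9 and 265.9 CPM, a ratio of −0.58. Both differences were many times the spread of the libraries, while Cdkn1b, the inhibitor p27, and Foxm1, a mitotic transcription factor, were closer to 0 at −0.11 and −0.17. The exception of this stretch was Ing4 at 0.24, which shares 35.8% of its words with other genes.

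Elsewhere in the low stretches the same list held Ezh2, the Polycomb methyltransferase, with 154.1, 153.4 and 153.3 CPM against 97.61, 100.5 and 98.50 CPM, a ratio of −0.64. On the low stretch of chromosome 12 it held 9 genes of at least 10 CPM, all below 0, with a median of −0.38. The lowest of these were the mismatch repair gene Mlh3 at −0.74 and the DNA end-processing gene Tdp1 at −0.63, with Dicer1, of microRNA processing, at −0.38. On the proximal part of chromosome 12, outside the low stretch, 7 of 7 genes of the list were also below 0, with a median of −0.31 where all 168 genes there had −0.10. Among these were Rrm2, a ribonucleotide reductase subunit, at −0.57 with 12% of words shared, and the polyamine synthesis gene Odc1 at −0.43 with 31.3% shared. Some members of the list are better known for other roles, such as Sptssa, of sphingolipid synthesis, at −0.31 and Papola, the poly(A) polymerase, at −0.41. In the middle stretch of chromosome 6 the list held 3 genes, 2 of them below 0, with a median of −0.01. Low ratios in this list were thus also seen outside the low stretches on chromosome 12, but hardly in the middle of chromosome 6.

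The list of RAS and growth factor signalling genes differed by place. Of 23 genes of at least 10 CPM, 13 were below 0 and the median was −0.08, and edgeR called 13 of the 26 tested lower and 10 higher, beside the same 31.1% and 31.4% over all genes tested. In the proximal low stretch of chromosome 6 the receptor tyrosine kinase gene Met had 121.1, 123.5 and 110.3 CPM in the Parental libraries and 77.45, 74.79 and 72.24 CPM in the LM2 libraries, a ratio of −0.66. The Hedgehog signal transducer Smo stood at −0.50 and the kinase gene Braf at −0.38, with Hipk2, above, as the exception. On the other chromosome, 12, the survival kinase gene Akt1, in the low stretch, had 463.1, 466.6 and 460.3 CPM against 390.4, 390.9 and 381.2 CPM, a ratio of −0.26. Of 9 such genes on the proximal part of chromosome 12 only Rhob was below 0, at −0.20, and the NF-kappa-B inhibitor gene Nfkbia was highest at 0.81.

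Other lists were mixed. Of 12 glycolysis and glucose metabolism genes of at least 10 CPM, 8 were below 0, with a median of −0.14. In this list Slc2a3, a glucose transporter, had 33.34, 33.64 and 34.40 CPM in the Parental libraries and 21.55, 19.62 and 19.46 CPM in the LM2 libraries, a ratio of −0.74. Hk2, which encodes hexokinase 2 and lies in the middle stretch of chromosome 6, stood at 0.30. Of 21 adhesion, membrane and cytoskeleton genes 10 were below 0, with a median of 0.02, and even in the low stretches Zyx, Cald1 and Tspan9 were above 0 at 0.25, 0.17 and 0.39. Cav1 and Cav2, the caveolin genes of the proximal low stretch, stood at −0.16 and −0.34.

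Of 12 interferon and inflammation genes of at least 10 CPM, 6 were below 0, with a median of 0.01. Samd9l and Parp12, in the same low stretch and both known from the interferon response, had opposite ratios of −0.73 and 1.18. The 3 imprinted-region genes that reached 10 CPM, Copg2, Pon2 and Pon3, all in the proximal low stretch of chromosome 6, stood at −0.26, −0.37 and −0.38. In the Hoxa cluster no gene reached 10 CPM, and Hoxa10 averaged 7.69 CPM over the Parental and 8.14 CPM over the LM2 libraries.

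Other chromosomes set the scale for these differences. Chromosome 4 had a median of 0.38 over 557 genes, chromosome 8 a median of −0.33 over 501 genes and chromosome 10 a median of −0.38 over 437 genes. On these the windows stayed on one side of 0 from end to end, from 0.24 to 0.50 on chromosome 4, from −0.52 to −0.10 on chromosome 8 and from −0.49 to −0.22 on chromosome 10. On the other 14 autosomes medians lay between −0.06 and 0.06, and all 5725 windows between −0.15 and 0.19. On chromosome 6 windows ran from −0.39 to 0.06 and thus lay on both sides of 0, and on chromosome 12 they ran from −0.41 to −0.05, all below 0. Uneven windows were not particular to these chromosomes, as those of chromosome 8 covered a wider range than those of chromosome 12. That chromosomes 6 and 12 differ from the rest is what chose them, and it was not tested.

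**Figure D5:**
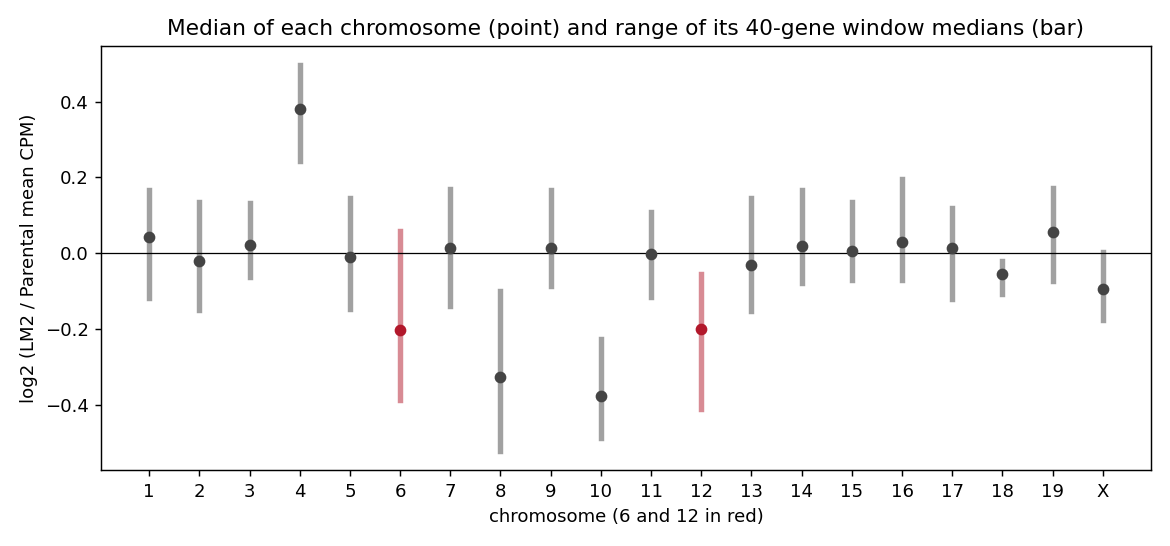
Median log2 of LM2 over Parental mean CPM for each chromosome (points) with the range of its 40-gene window medians (bars), chromosomes 6 and 12 in red. The bar of chromosome 6 crosses 0 and that of chromosome 12 ends at −0.05, that of chromosome 8 ends at −0.10, and those of chromosomes 4 and 10 lie farther from 0.

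The authors' deposited table of log fold changes per gene gave nearly the same values. Its log base and its direction are not stated and were both read from this match, so the sign is no separate evidence. In it, 138 of the 147 genes of the proximal low stretch of chromosome 6 had a median of −0.315, 122 of 129 genes of the distal one a median of −0.255, and 133 of 140 genes of the chromosome 12 low stretch a median of −0.34. Of the low stretches, 318 of 393 genes were below 0 in the authors' deposited table, and 7412 genes of the other autosomes had a median of 0.00. The median absolute difference from the ratios given here was 0.02 over the 393 genes.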

How the data were processed

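Per the labels, the 3 Parental and 3 LM2 libraries were made with an mRNA library kit. The authors deposited estimated counts, TPM and transcript lengths per transcript, made with kallisto 0.46.2 on build GRCm39, and FastQC, MultiQC and edgeR 3.32.1 are also named, per the submitters' processing notes. The sources used here give neither the transcript set nor the strand setting, so reads of overlapping genes could not be separated. The deposited log2 table lists 1 fold change per gene; its log base and direction are not stated and were taken as log2 of LM2 over Parental, since its values then matched the ratios computed here.

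Estimated counts of 116408 of 117486 transcripts were summed over 35905 genes by GENCODE M21, which is on GRCm38. Only gene names, types and order come from it, so no gene positions of the files' build are given. TPM were summed per gene for levels per length. CPM used the library total. Windows held 40 genes; runs parted by fewer than 20 windows were joined; a stretch began after the 20th gene of its first window and ended with the 20th gene of its last. Rounded counts were fitted with edgeR 4.0.16 in R 4.3.3 (TMM, filterByExpr, robust quasi-likelihood, all 6 libraries); DESeq2 1.42.0 was an alternative, as were other windows, CPM limits and scalings, and leaving out libraries. Tables were made with Python 3.11.15, pandas 2.3.3 and NumPy 2.4.6. Both steps were tested on simulated data. A gene's shared sequence is the share of its 31-base words found in transcripts of other genes.

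The chromosomes, members and lists were chosen with earlier results of these data known. Named genes are 5 on each side of a boundary, the 6 most abundant, the 6 lowest and 6 highest of each low stretch, and list members; some genes that the rule names are not reported here. Genes of the stretches near 0 were singled out after their values were seen.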

Additional observations from a re-analysis of the deposited data

How the results depend on the processing

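Each of the 3 low stretches had a counterpart under every alternative run. These held 139 to 155 genes for the proximal and 118 to 161 for the distal low stretch of chromosome 6. For the low stretch of chromosome 12 they held 121 to 145. The midpoint rule always marks some windows as low, the fitted step always returns a stretch, and counterparts were matched by shared genes. Finding one is therefore no support, and the gene numbers only describe how far the edges moved. The median of the proximal low stretch of chromosome 6 stayed between −0.32 and −0.29 and moved by less than the SD between libraries in every case. For the distal low stretch of chromosome 6 the median was −0.24 with windows of 60 genes, −0.32, −0.31 and −0.31 with limits of 5, 1 and 30 CPM, −0.24 with a fitted step, −0.23 with the authors' deposited values, and −0.26, −0.26 and −0.24 with boundaries from replicates 1, 2 and 3, an alternative chosen after seeing the data. For chromosome 12 it was −0.34 with windows of 60 genes, −0.35, −0.33 and −0.38 with limits of 5, 1 and 30 CPM, −0.38 with a fitted step, −0.34 with the authors' deposited values, and −0.35 and −0.34 with boundaries from replicates 1 and 3. Leaving out each library in turn gave −0.29 to −0.24 for the distal low stretch of chromosome 6 and −0.36 to −0.33 for chromosome 12. The moves under the settings named before the left-out libraries were larger than the SD between libraries, as were those without some of the libraries, and their cause was not tested. No median changed sign.

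Deviations of same-numbered libraries from the mean of their line correlated at −0.078, 0.045 and 0.015, and those of other pairs at −0.09 to 0.073. Same-numbered libraries thus showed no closer match, but this cannot exclude that they were handled together, which the labels do not state. With the replicate number as a block, medians were −0.30, −0.27 and −0.37 and edgeR called 8250 genes, against 8272 without it. Under the other filters, DESeq2 and each left-out library, 7485 to 8596 genes were called, with 313 to 325 lower and 42 to 50 higher in the low stretches. TMM and DESeq2 scaling moved the 3 medians by less than 0.01. Such scaling shifts the ratios of all genes nearly alike, so it could hardly move an edge.

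Estimated counts carry an assignment error that was not analysed, and the number of genes per window limits how closely an edge can be placed. No explanation of the stretches was tested.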

Other observations

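A few genes of the stretches near 0 were far higher in LM2. Actg2, the smooth muscle gamma actin gene, lies in the middle stretch of chromosome 6 and had 0.1972, 0.1372 and 0.4219 CPM in the Parental libraries and 46.0, 46.31 and 42.01 CPM in the LM2 libraries. Slc4a5, which encodes a bicarbonate cotransporter, had 0.5477, 0.5489 and 0.7196 CPM against 18.95, 22.18 and 21.25 CPM. Loxl3, of the lysyl oxidase family, had 7.321, 9.563 and 8.094 CPM against 23.29, 22.64 and 21.76 CPM. In each of these the LM2 libraries were all above the Parental ones, as for 36.1% of all 8737 genes of at least 10 CPM. Actg2, Slc4a5 and Loxl3 were below 10 CPM in every Parental library and passed the limit on the mean only through LM2. Nothing is therefore read from the lack of overlap. Grip2 had a log2 ratio of 3.50 that rested on LM2 library 2, at 158.0 CPM, while LM2 libraries 1 and 3 had 7.804 and 4.910 CPM and the Parental libraries 4.023 to 6.606 CPM. These genes were chosen after their values were seen.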
